A study of Mus musculus with 2 samples.

Results

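The genes described here are 37 mouse genes of the actin cytoskeleton and phagocytosis, chosen by symbol from a fixed list and all found among 55536 annotated genes. They encode the cytoplasmic actins, proteins that bind actin monomers and filament ends, the Arp2/3 complex and its activators, and proteins that bundle, crosslink or pull on filaments. The list also holds GTPases with their regulators, and proteins that tie filaments to membranes and adhesion sites. They were measured in 2 total RNA-seq libraries, depleted of ribosomal RNA. The RNA came from the nucleoplasm, called nucleus in another label, of primary macrophages grown from bone marrow of strain C57BL/6J. The cells had been exposed for 25 min to 100 ng/ml of lipid A, the membrane anchor of bacterial lipopolysaccharide, which the receptor TLR4 senses. No genetic change is named, sex and age are given as not collected, and 500 ng of RNA went into replicate 1 and 1 µg into replicate 2. Both libraries carry the same donor entry and form 1 group, so SDs measure the spread between these libraries. No untreated, whole-cell or cytoplasmic group was analysed here, so the values are levels in the nuclear RNA of treated cells, no induction was measured, and no p-value was computed. In bulk RNA, fewer cells of a type and less RNA per cell cannot be told apart.

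Macrophages engulf particles by pushing actin-filled membrane around them. Receptors at the surface activate exchange factors, which load GTPases with GTP, and these in turn switch on activators of the Arp2/3 complex, which grows new filaments as branches on old ones. Severing proteins take filaments apart again, and capping proteins bind filament ends. Transcription of several actin genes is known to follow the pool of free actin through the factor SRF and its cofactors.

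The gene tables held 13506939 estimated counts in replicate 1 and 17932332 in replicate 2, and an undetected gene, at 0 counts, could hold up to 0.222 CPM in the first and 0.167 CPM in the second. CPM is the count scaled to a common library total, and this limit covers counting error only. Levels are given as TPM, a relative abundance that corrects for transcript length and has the same total in every library. Macrophage markers were detected for 12 of 12 genes, with a summed 5101 and 4242 TPM, and the highest by mean were Lyz2 and Csf1r. Detection means at least 1 TPM in both libraries. None of 7 T and NK cell, 5 B cell, 7 fibroblast, 8 muscle or 5 epithelial markers was detected, against 2 of 8 for neutrophils and 2 of 7 for erythroid cells and megakaryocytes. Outside the erythroid and megakaryocyte list, each of these lists summed to at most 4.40 TPM. In that list the chemokine gene Pf4 held 70.3 and 48.3 TPM. A second table of transcripts, quantified without alignment, was scaled differently in both libraries: transcripts under 200 bases took 28.5% of its TPM in replicate 1 and 74.9% in replicate 2, so its TPM is not compared between the libraries without centring.

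All 37 genes were detected, against 44.5% of 22028 protein-coding genes, and 36 of the 37 reached 5 TPM in both libraries. The list was chosen with earlier results of these data known, so its detection and levels against other genes are a description only. The median level over the genes was 65.2 TPM in replicate 1 and 50.5 TPM in replicate 2. On the log2(TPM + 1) scale that median was 5.87 ± 0.26 (SD, n = 2). All protein-coding genes had a median of 0.67 ± 0.22 and those detected had 3.40 ± 0.33 on the same scale. The list therefore lay 5.20 ± 0.038 above the first and 2.47 ± 0.077 above the second, with the same sign in each library. In each library 35 of the 37 genes lay above the median detected protein-coding gene, and Ezr was below it in both. Together the genes held 0.822% of all counts in replicate 1 and 0.785% in replicate 2. By TPM, 31 of 37 were higher in replicate 1, while replicate 2 stood at a median of -0.42 in log2 against replicate 1 over the 14584 genes that had 10 counts or more in each.

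**Figure D1:**
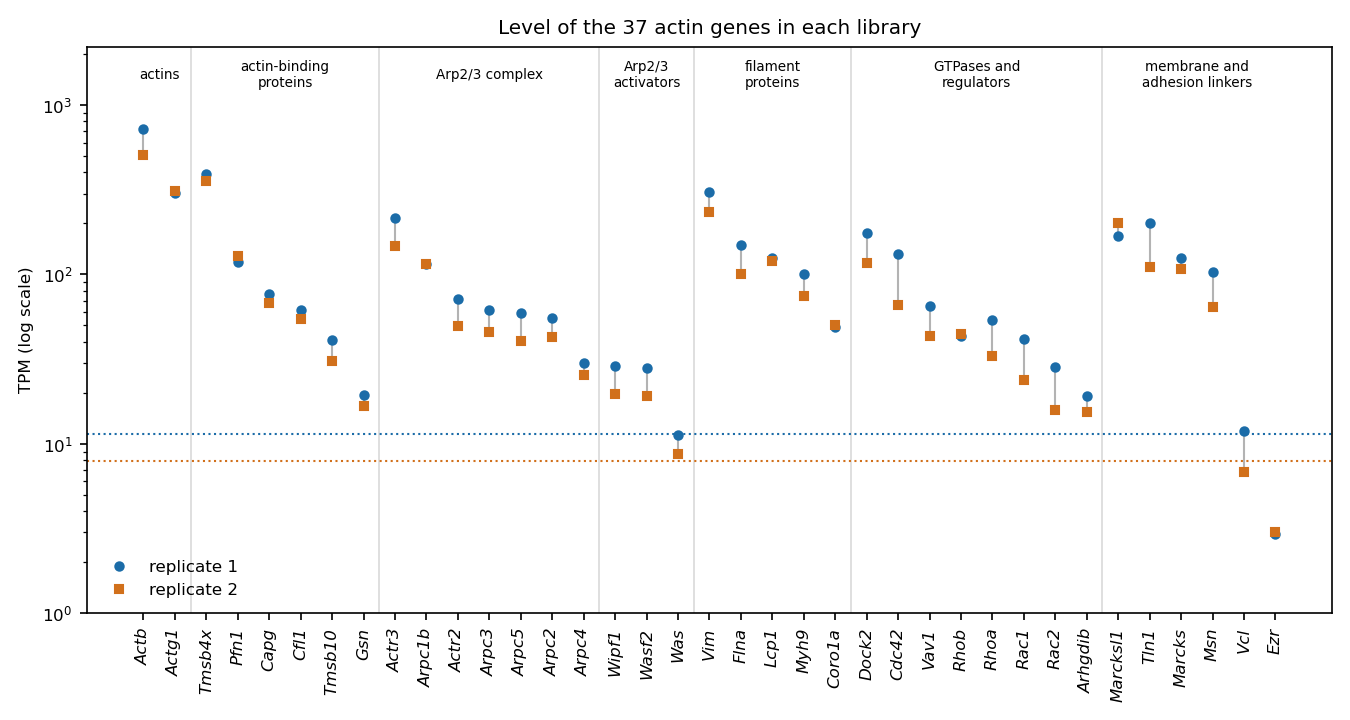
TPM of each of the 37 genes on a log axis, grouped by role and ordered by mean level, with circles for replicate 1, squares for replicate 2 and dotted lines at the median detected protein-coding gene of each library. The highest gene is Actb at 725 and 509 TPM and the lowest is Ezr at 2.93 and 3.0 TPM.

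The cytoplasmic actins were the most abundant group, with a summed 1029 TPM in replicate 1 and 822 TPM in replicate 2. Actb (ENSMUSG00000029580.14, chr5:142903115-142906754, minus strand, mm10), which encodes beta-actin, had 725 and 509 TPM and was the highest of the 37 in each library. Actg1 (ENSMUSG00000062825.15, chr11:120345690-120348542, minus strand), which encodes gamma-actin, had 304 and 313 TPM. By TPM the libraries differed for Actb and lay close together for Actg1. Relative to the median ratio of all genes, Actb was at -0.086 and Actg1 at 0.46 in log2. Actb was 2.38-fold higher than Actg1 in replicate 1 and 1.63-fold higher in replicate 2, so the order was the same and its size was not. In the alignment-free table that fold was 4.37 and 1.86. There, a 241-base transcript of Actb held 695 counts and 234 TPM in replicate 1 and 1.71 counts in replicate 2. The 2 genes took 18.7% and 18.0% of the counts of all 37. Actin genes have near-identical copies and processed pseudogenes, so the split of shared reads can affect these values. The deposited posterior SD was 0% of the count for Actb in both libraries, and 0.107% and 0.115% for Actg1. Errors that this SD does not cover were not measured.

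Actin paralogs of muscle were at the floor in the same libraries. Acta1, Acta2, Actc1 and Actg2 summed to 0.46 TPM in replicate 1 and 0.29 TPM in replicate 2. Actg2 was listed at 0 in both.

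SRF, the factor that reads actin state, binds a sequence called the CArG box. In the RefSeq promoter table (GRCm38.p6, 250 bases before to 50 after each start) 33 of the 37 genes had 44 windows. Actb, Rac1, Rac2 and Marcks were not searched. A CArG box, searched on both strands, stood in 3 of these windows and in 1.63% of all 32851 windows. Those of Actg1 and Vcl are shown because they place the box upstream of an actin gene and of a gene for an adhesion protein. Capitals mark the box, the sequence runs 5′ to 3′ on the gene's strand, and positions count from the start site as 0.
Actg1, chr11:120348536-120348625, minus strand, box starting at -90: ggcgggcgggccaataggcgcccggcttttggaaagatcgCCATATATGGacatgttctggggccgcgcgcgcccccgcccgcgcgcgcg
Vcl, chr14:20929148-20929220, plus strand, box starting at -227: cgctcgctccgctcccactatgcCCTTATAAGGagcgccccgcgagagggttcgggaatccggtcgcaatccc
The third box lay at the edge of the Arpc4 window, at -250. A match is a string of letters and not a bound site. Srf itself had 5.30 and 5.96 TPM, and its actin-regulated cofactors Mrtfa and Mrtfb had 55.6 and 51.6 TPM and 21.5 and 11.9 TPM. The genes with the box, Actg1, Arpc4 and Vcl, were 3rd, 29th and 36th of the 37 by mean TPM.

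Other motifs in the same windows were counted as a description. GGGCGG, the core of an Sp1 site, stood in 32 of the 44 windows, on 27 genes, and in 35.7% of all windows. TATAAA stood in 5 windows (Arhgdib, Cdc42, Myh9, Rhoa and Vim) and in 13.6% of all. The PU.1 motif GAGGAAGT stood in 2, at Arpc1b and Vav1, and in 3.20% of all. The AP-1 motif TGANTCA stood in 1, at Ezr, and in 7.81% of all. These strings can overlap one another, and both strands were searched.

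Among proteins that bind monomers and filament ends, the genes for thymosin beta-4 and profilin led. Tmsb4x (chrX:167207093-167209315, minus strand), which encodes thymosin beta-4, a small protein that holds actin monomers out of filaments, had 394 and 358 TPM and was 2nd of the 37 in each library. Its relative Tmsb10 had 41.0 and 30.9 TPM, so Tmsb4x was 9.59-fold and 11.6-fold higher. Pfn1, which encodes profilin, the protein that recharges monomers and hands them to growing ends, had 118 and 129 TPM. It was 1 of the 6 genes that were not higher in replicate 1. Capg, which caps filament ends, had 76.5 and 68.0 TPM. Gsn, which encodes the calcium-activated severing protein gelsolin, was the lowest of the group at 19.3 and 16.6 TPM. Cfl1, which encodes the severing protein cofilin, had 61.4 and 54.2 TPM. By TPM Cfl1 was 0.518 and 0.420 times the level of Pfn1. When all counts of a gene were placed on the transcript that held most of them over both libraries, these ratios were 1.11 and 0.782. For Pfn1 that was Pfn1-203, which has a retained intron. In replicate 1 alone Pfn1-201 held more, with 814 counts against 635, so no order of the pair is read from this alternative.

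Genes for all 7 subunits of the Arp2/3 complex were present, with a summed 607 TPM in replicate 1 and 466 TPM in replicate 2. The complex consists of 2 actin-related proteins, encoded by Actr2 and Actr3, and 5 further subunits. Actr3 (chr1:125392905-125435727, minus strand) had 214 and 146 TPM and was the highest. Arpc1b, which encodes the subunit form found in blood cells, had 116 and 115 TPM, the smallest spread in raw TPM in the group. Relative to the median ratio of all genes, however, Arpc1b was at 0.41 in log2, the largest departure of the 7 subunits. Actr2, the partner of Actr3 in the nucleating core, had 71.7 and 49.9 TPM. Actr3 was thus 2.98-fold and 2.93-fold higher than Actr2 although the proteins act as a pair. The lowest subunit was Arpc4 at 30.1 and 25.5 TPM, and Actr3 was 7.11-fold and 5.74-fold above it. Arpc2, Arpc3 and Arpc5 lay between 40.7 and 61.5 TPM. TPM adds up over transcripts, and short ones weigh much: with all counts on the one transcript chosen as above, Arpc1b was at 36.8 and 34.7 TPM and Actr3 at 132 and 91.0 TPM.

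Subunit forms differed within the complex. Arpc1a, the paralog of Arpc1b, had 10.7 and 8.18 TPM, so Arpc1b was higher by 3.49 ± 0.24 on the log2(TPM + 1) scale. In the alignment-free table that difference was 1.83. Actr3b had 0.08 and 0.07 TPM, from 2 and 3 counts. The log2 difference from Actr3, 7.37 with a pseudocount of 1 TPM, was 9.98 with 0.1 TPM and 6.00 in the alignment-free table, so its size is set by the pseudocount and the table. Arpc5l, the paralog of Arpc5, had 7.64 and 6.22 TPM.

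The activators of the complex were the lowest group by median level, with a summed 67.7 and 47.7 TPM. Wasf2, which encodes the activator WAVE2 that works under Rac, had 27.8 and 19.2 TPM. Wipf1, which encodes the partner protein that stabilises WASP, had 28.6 and 19.7 TPM. Was, which encodes WASP, the activator that works under Cdc42 in blood cells, had 11.3 and 8.76 TPM, or 283 and 323 counts. Wasf2 was 2.47-fold and 2.19-fold higher than Was. Was and its broadly expressed paralog Wasl were not separated by these libraries: Wasl had 13.2 TPM in replicate 1, above Was, and 7.16 TPM in replicate 2, below it. Wasf1 and Wasf3, paralogs of Wasf2, had at most 0.06 TPM.

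Vim led the filament-binding and motor group. Vim (ENSMUSG00000026728.9, chr2:13573927-13582826, plus strand), which encodes the intermediate filament protein vimentin, had 306 and 234 TPM and was the 4th of the 37 by mean. Its paralogs Des, Gfap and Prph summed to 0.81 TPM in replicate 1 and were listed at 0 in replicate 2. Flna, which encodes filamin A, a crosslinker of filaments, had 149 and 101 TPM. Lcp1, which encodes the bundling protein L-plastin, had 125 and 120 TPM. Pls1 and Pls3, the other plastins, summed to 1.09 and 1.20 TPM. Myh9, which encodes a non-muscle myosin heavy chain, had 99.9 and 74.1 TPM. By TPM, replicate 1 was higher for Vim, Flna and Myh9, and Lcp1 differed little. Relative to the median ratio of all genes, Vim was at 0.03 and Myh9 at -0.0035 in log2, and Lcp1 was at 0.37. With all counts on one transcript, Vim had 146 and 122 TPM, Flna 77.6 and 48.1 TPM, and Myh9 55.4 and 44.1 TPM. For Vim that was the 2926-base Vim-205, which has a retained intron, and not the 2193-base protein-coding Vim-201. Coro1a, which encodes the leukocyte coronin, was the lowest at 49.1 and 50.5 TPM.

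Coro1a was below the sum of its paralogs. Coro1b had 66.1 and 55.3 TPM and Coro1c had 64.5 and 36.99 TPM, and Coro2a and Coro2b added 23.8 and 19.0 TPM and 8.57 and 3.09 TPM. The log2 ratio of Coro1a to the sum of these 4 was -1.71 in replicate 1 and -1.16 in replicate 2. In the second library Coro1a lay between Coro1b and Coro1c, and in the first it lay below both.

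Among the GTPases and their regulators, the exchange factor Dock2 and the GTPase Cdc42 had the highest levels. Dock2, which encodes an exchange factor for Rac in blood cells, had 176 and 117 TPM over a gene of 557 kb, the longest of the 37. Cdc42, which encodes the GTPase that drives filopodia and activates WASP, had 132 and 66.1 TPM, well apart between the libraries. Vav1, which encodes an exchange factor downstream of ITAM receptors, had 65.2 and 43.2 TPM. Arhgdib, which encodes an inhibitor that keeps GTPases in the cytosol, was the lowest at 19.2 and 15.3 TPM. Rac1, the GTPase of membrane ruffles, had 41.7 and 23.7 TPM, and its blood-cell relative Rac2 had 28.5 and 15.8 TPM. Rac1 was 1.46-fold and 1.5-fold higher than Rac2 by TPM from alignment. Quantified without alignment, the fold was 0.854 and 0.721, so the direction turned with the quantification. For both genes a short transcript carried much of the TPM: the 254-base Rac2-203 held 8.93 and 8.90 counts but 41.7% and 31.0% of the TPM of Rac2, and the 585-base Rac1-204 held 45.4% and 46.8% of that of Rac1. Rhoa, which controls contraction, and Rhob, an early-response GTPase on endosomes, changed order between the libraries. Rhoa had 53.8 and 32.9 TPM and Rhob had 43.5 and 44.7 TPM.

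Among exchange factors and inhibitors the listed gene was not always the highest of its family. Arhgdia, the widely expressed inhibitor, had 57.6 and 40.5 TPM, above Arhgdib in both libraries, with a log2 ratio of -1.54 and -1.35. Vav3 had 53.3 and 43.6 TPM and Vav2 had 24.9 and 21.4 TPM, so Vav1 was above Vav2 in both libraries, while their sum exceeded Vav1 in both. Dock1 had 46.5 and 29.9 TPM and Dock5 had 7.53 and 5.40 TPM, and Dock2 was 1.69 ± 0.01 above their sum in log2.

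The linkers between filaments, membranes and adhesion sites held the widest range as a fold between the highest and lowest gene. Marcksl1 (ENSMUSG00000047945.6, chr4:129513581-129515985, plus strand), which encodes a membrane-bound actin regulator under protein kinase C, had 168 and 202 TPM. Tln1, which encodes talin, the protein that activates integrins and binds them to actin, had 202 and 110 TPM. Marcks, the relative of Marcksl1, had 125 and 108 TPM, and Marcksl1 was 1.35-fold and 1.87-fold higher. Msn, which encodes moesin, had 104 and 64.4 TPM. Its relative Ezr (chr17:6738041-6782784, minus strand), which encodes ezrin, was the lowest of the 37 with 2.93 and 3.0 TPM from 118 and 205 counts. Msn was 35.3-fold and 21.5-fold higher than Ezr, and the third relative Rdx had 13.9 and 8.20 TPM. Vcl, which encodes vinculin, had 11.9 and 6.78 TPM.

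Tln1 and Vcl act at the same adhesion sites, and Tln1 was 17.0-fold and 16.2-fold higher. Much of the talin TPM sat on short transcripts. The 283-base Tln1-204 held 0.753% and 1.11% of the counts of Tln1 but 29.2% and 41.3% of its TPM. Tln1-206 held 525 counts and 30.6% of the TPM in replicate 1 and 0 counts in replicate 2. With all counts of each gene on one transcript the fold of Tln1 over Vcl was 6.67 and 8.34. Tln2 had at most 0.23 TPM.

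Over 22 sets that pair members with their paralogs, 21 of 44 paralogs were detected. The member or members were higher than the summed paralogs in both libraries in 18 sets, and over 3-fold higher in both in 16. The sets of Coro1a, Arhgdib, Vav1 and Was were the 4 exceptions. Ezr was pooled with Msn, and alone, at 2.93 and 3.0 TPM, it was below its paralog Rdx at 13.9 and 8.20 TPM. These sets were written with the member in mind, and the counts describe the levels only. Where paralogs are near 0, the size of the ratio depends on the pseudocount: for the actins it was 9.39 with 1 TPM and 10.94 with 0.1 TPM. Genes of one family share sequence, so reads between them are split by the quantifier.

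**Figure D2:**
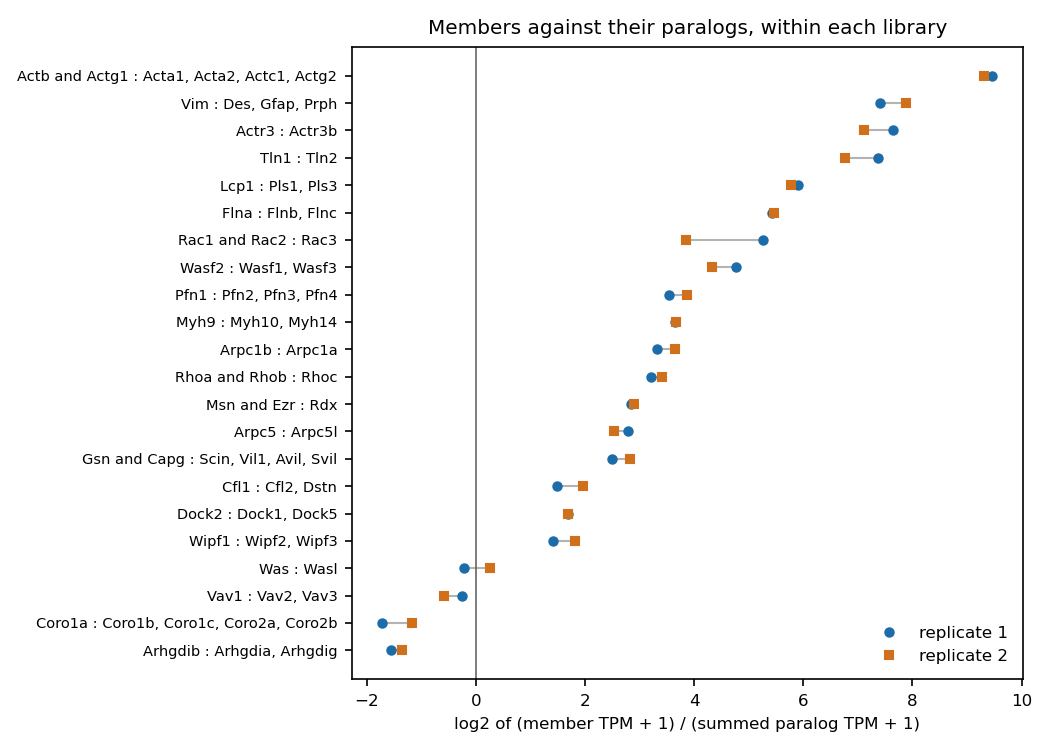
Log2 ratio of member TPM + 1 to summed paralog TPM + 1 in each library for 22 sets, with circles for replicate 1 and squares for replicate 2 and a line at equal levels. The actins stand at 9.46 and 9.32 and the lowest sets, Coro1a and Arhgdib, lie left of the line.

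Nuclear RNA holds transcripts that are not fully spliced, and the annotation names some of them as transcripts with a retained intron. Such a transcript was annotated for 21 of the 37 genes. These held 11.8% of the counts of all 37 genes in replicate 1 and 14.2% in replicate 2, against 15.1% and 16.0% over all protein-coding genes. Vim alone carried part of this: without it the share was 9.27% and 11.6%. Over the 21 genes the median share was 11.2% and 16.2%, and over the 6881 protein-coding genes with such a transcript it was 17.2% and 16.7%. A mean share of at least 20% was found for 9 of the 21 genes, against 45.3% of those 6881 genes, so the list was near the background.

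Vim had the highest share, with 61.3% and 60.3% of its counts on retained-intron transcripts, and its leading transcript by TPM, the 535-base Vim-203, was of that type. Pfn1 followed with 43.8% and 59.6%, Arpc1b with 43.3% and 48.3%, and Rhoa with 35.7% and 38.4%. Arpc3 had 40.6% and 28.3% and Actr3 had 32.8% and 29.9%. Dock2, Coro1a and Vcl had mean shares of 27.3%, 24.8% and 20.3%. The share was higher in replicate 2 for 15 of the 21 genes and higher in replicate 1 for 5, namely Vim, Arpc3, Actr3, Coro1a and Vav1. The same count was not made over all protein-coding genes, so it is not read as a trait of the list. Actb had 4.76% and 9.16%, far below the genes named above, and Actg1 had 11.2% and 17.0%. Actr2, in contrast to Actr3, had 0.596% and 1.43%. Gsn had 0 counts on its retained-intron transcript in both libraries. Across the 21 genes the shares of the libraries had Pearson's r = 0.956 and Spearman's rho = 0.958, as a description over genes that share both libraries and the annotation.

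**Figure D3:**
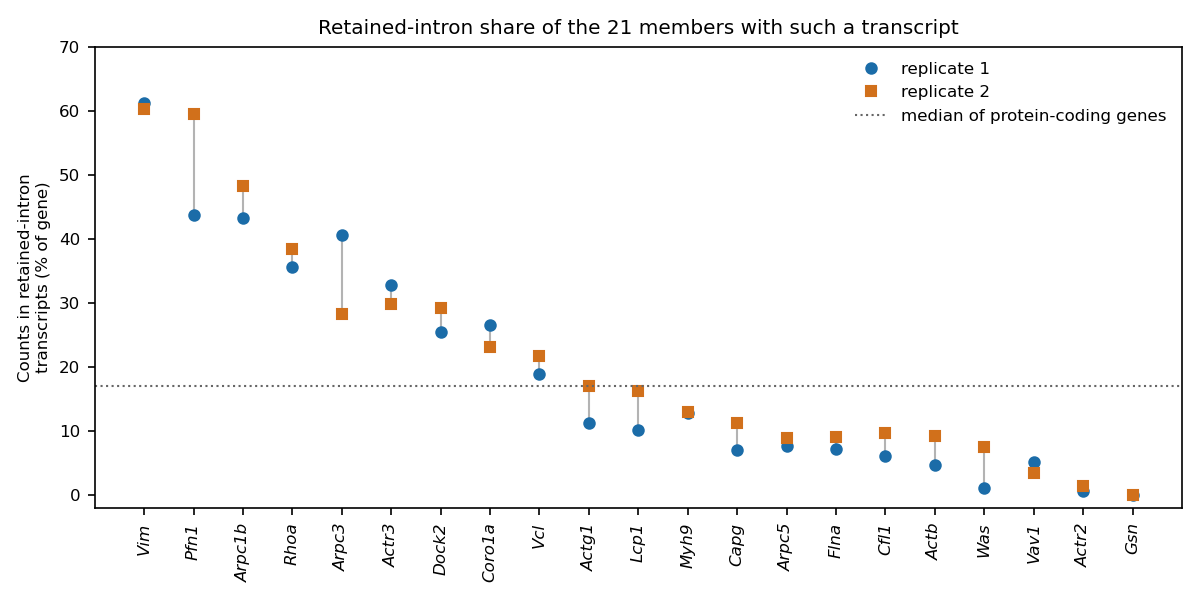
Percent of each gene's counts on retained-intron transcripts for the 21 genes that have one, ordered by mean, with circles for replicate 1, squares for replicate 2 and a dotted line at the median of protein-coding genes with such a transcript. Vim and Pfn1 stand highest and Gsn is at 0 in both libraries.

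A retained-intron transcript need not hold a whole intron. Those of Arpc1b, Arpc3, Actr3, Rhoa, Dock2 and Vcl covered only part of the introns they entered. Rhoa-204 covered 4986 of 8754 bases of intron 1, Dock2-206 covered 963 of 125717 bases of intron 27, and Vcl-203 covered 2789 of 5138 bases of intron 8. Whole introns were kept in transcripts of Vim, Pfn1 and Coro1a. Their splice donor regions are shown because these are the sites that the transcripts leave uncut: 30 bases of coding exon in lower case, then 30 bases of the kept intron in capitals, on the gene's strand in mm10, from GENCODE M21 transcripts.
Pfn1-203, intron 1, chr11:70654319-70654378, minus strand: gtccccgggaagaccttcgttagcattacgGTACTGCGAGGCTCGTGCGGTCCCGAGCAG
Vim-205, intron 1, chr2:13574965-13575024, plus strand: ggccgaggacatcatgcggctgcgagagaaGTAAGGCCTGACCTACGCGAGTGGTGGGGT
Vim-204, intron 3, chr2:13578479-13578538, plus strand: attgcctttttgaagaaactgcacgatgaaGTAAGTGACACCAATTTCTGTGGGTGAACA
Coro1a-203, intron 6, chr7:126701260-126701319, minus strand: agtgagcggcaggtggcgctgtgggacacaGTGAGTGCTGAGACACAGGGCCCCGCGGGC
Each intron begins with GT. Over all 37 genes, 16 whole-intron junctions were found, and 16 began with GT and ended with AG. Pfn1-203 kept the 1369 bases of intron 1 and held 43.8% and 59.6% of the counts of Pfn1. Vim-205 kept the 546 bases of intron 1 with 1847 of the 2811 bases of intron 2, and it held 48.3% and 46.5% of the counts of Vim. Vim-204 kept the 80 bases of intron 3 and held 1.45% and 5.74%. Vim-203, the leading transcript of Vim by TPM, kept no whole intron. It covered 52 of the 670 bases of intron 4 and held 11.5% and 8.06% of the counts. Coro1a-203 kept the 193 bases of intron 6 and held 11.0% and 10.2% of the counts of Coro1a. Reads in such an intron can also come from unspliced precursor RNA, and the deposited counts do not separate these sources.

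For 35 of the 37 genes the leading transcript, the one with the most TPM, was protein-coding, and Vim and Arpc1b were the exceptions. In the alignment-free table the count was 32, and the leading transcript was the same one in both tables for 28 genes. It differed for Tmsb4x, Capg, Arpc3, Coro1a, Lcp1, Rac1, Rac2, Dock2 and Tln1. Gene TPM was over 2-fold above alignment-free TPM in both libraries for 7 genes: Actg1, Pfn1, Flna, Rhob, Dock2, Msn and Marcksl1. That comparison carries the difference in scale given above. For these counts of genes no matching share over all protein-coding genes was computed, so they describe the listed genes only. Of single genes, Gsn had 1 dominant transcript, Gsn-205, with 90.8% and 94.2% of its TPM. Cdc42 had 2, with Cdc42-202 at 84.6% and 72.7% and Cdc42-201 at 15.4% and 27.3%. Arpc4-201 held 59.6% and 89.0% of Arpc4, a spread larger than for the other leading transcripts just named. Transcripts marked for nonsense-mediated decay held 1.04% and 0.259% of the counts of the 37 genes, against 2.44% and 2.42% over all protein-coding genes. Nearly all of the members' counts of this type were on Flna-213, with 1146 and 352. Flna-206 held 6.49 and 3.22 counts, Rac2-202 held 0 and 4.93, and Pfn1-204 held 0 and 4.17.

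Between the libraries, 1 of the 37 genes lay over 1.5-fold above the median ratio and none lay that far below it. Marcksl1, at 0.68 in log2 after the median of -0.42 was taken off, was higher in replicate 2, where the background was 5.85% of 14584 genes higher by that much and 3.43% lower. Just inside the threshold were Pfn1 at 0.55 and Cdc42 at -0.56. None of the 37 passed 2-fold, against 1.22% of genes higher and 0.487% lower. The median over the 37 was 0.023 with an SD over genes of 0.31. The scale mattered for this count. With CPM in place of TPM, Pfn1, Coro1a, Rhob, Ezr and Marcksl1 passed, 5 of 37 against 9.72% of genes, and Pfn1 reached 0.95. In the alignment-free table, 11 of the 37 lay over 1.5-fold below its median, against 14.4% of genes there, and the median over the 37 was -0.47. The centring there used 23020 genes with 10 or more counts in that table. On this scale the 14584 genes above had a median of -0.16. What this centring and the pseudocount of 1 TPM add to the shift was not tested. The largest shifts in that table were those of Actb at -1.32 and Tln1 at -1.08.

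Members with a shorter genomic span tended to have higher ratios. Across the 37, log10 span and log2 ratio had r = -0.50 and rho = -0.53, and r = -0.56 and rho = -0.56 in CPM. The alignment-free table gave -0.29 and -0.39. Over 11364 countable protein-coding genes the values were -0.13 and -0.13. The points are genes of the same 2 libraries, and no p-value is given. The amount of RNA that entered the libraries, 500 ng and 1 µg, and the share of counts on protein-coding genes, 78.0% and 72.7%, differed between the same libraries. Their part in these ratios was not tested.

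**Figure D4:**
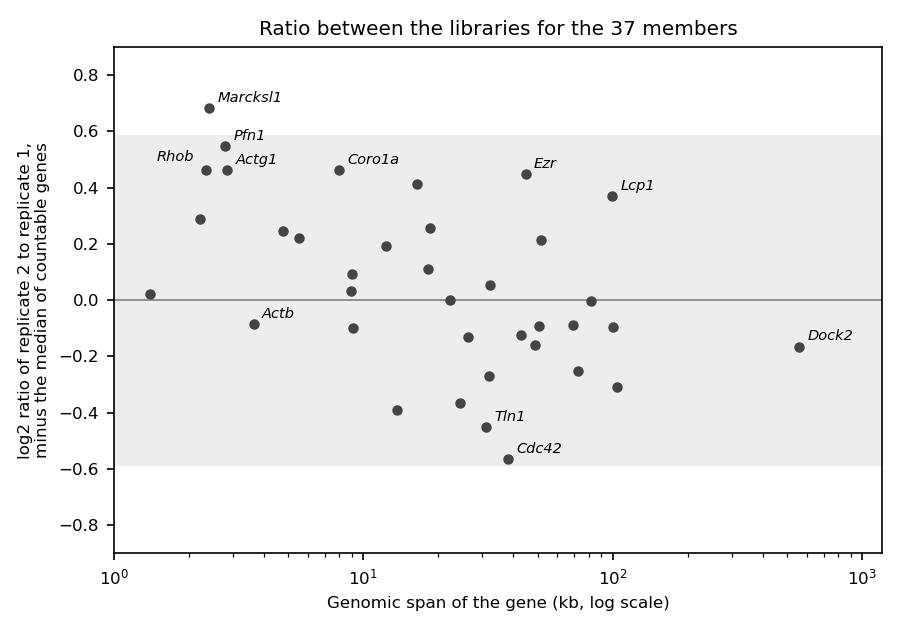
Log2 ratio of replicate 2 to replicate 1 in TPM + 1, minus the median of all countable genes, against genomic span on a log axis for the 37 genes, with the band of 1.5-fold shaded. Marcksl1 at 0.68 is the only gene outside the band, and Cdc42 at -0.56 is the lowest.

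Beyond the 37, 8 lists of related genes were read in the same libraries, and 104 of 115 genes were detected, against 44.5% of protein-coding genes. These lists too were chosen with earlier results of these data known, so the share detected is a description only. Of the formins and filament-end factors, 18 of 19 were detected, led by Evl at 115 and 92.3 TPM. Wdr1, a cofactor of cofilin, had 62.5 and 69.3 TPM and the capping subunit Capza2 had 65.0 and 48.4 TPM, while Enah was the lowest at 0.84 and 0.23 TPM. Of the WAVE and WASH complex subunits 13 of 15 were detected, led by the blood-cell subunit Nckap1l at 155 and 95.8 TPM, and its paralog Nckap1 had 1.37 and 0.87 TPM. Washc2 had 73.0 and 54.3 TPM, Abi1 had 49.3 and 33.7 TPM, and Cttn, which encodes cortactin, was the lowest at 1.22 and 0.40 TPM. All 11 kinases and phosphatases of actin control were detected, with Ssh3, which encodes a cofilin phosphatase, highest at 82.3 and 52.6 TPM Rock1 next at 47.8 and 30.6 TPM, Cdc42bpb at 37.1 and 23.6 TPM, and Pak1 lowest at 6.94 and 5.70 TPM. Among myosins, tropomyosins and crosslinkers 17 of 20 were detected, led by Myo5a at 430 and 286 TPM, Iqgap1 at 342 and 269 TPM and Tpm3 at 217 and 176 TPM. Tpm2 was the lowest, at 0 and 0.07 TPM.

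Most receptor and adhesion genes that act upstream were detected as well. Of the phagocytic receptors and their kinases 16 of 19 were detected. The scavenger receptor gene Stab1 had 569 and 532 TPM, the Fc receptor gene Fcgr2b had 347 and 261 TPM, and the mannose receptor gene Mrc1 had 236 and 175 TPM. Timd4 was listed at 0 in both. Among integrins and focal adhesion genes 15 of 16 were detected, led by Itgb2 at 151 and 119 TPM, Itgb1 at 134 and 97.6 TPM and Itga4 at 113 and 94.3 TPM. Fermt3, the blood-cell kindlin that works with talin, had 108 and 88.2 TPM, against 0.21 and 0 TPM for Fermt2.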

How the data were processed

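The deposited tables of both libraries were used. The authors derived the estimated (expected) counts, the TPM and the percent of a gene's TPM per transcript from transcriptome alignments (mm10, GENCODE M21), per the deposited readme. A second deposited table holds estimated counts and TPM made directly from the reads. Names of aligners and quantifiers, and any use of strand, were not given in the sources used here. Other deposited columns used were the posterior SD of counts (at most 1.81% of a count for the 37 genes) and lengths.

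The members and all gene lists were chosen with earlier results of these data known. Every member is accounted for. Named with values are the 3 highest and the lowest by mean TPM in each role group, genes past 1.5-fold between libraries, mean retained-intron shares of at least 20%, leading transcripts that are not protein-coding or differ between tables, the 3 highest and the lowest of the wider lists, and paralogs. Some genes outside these ranks were named after their values were seen, to complete a pair or group. The pseudocount was 1 TPM. Mkl1 and Mkl2 were found as Mrtfa and Mrtfb. Retained-intron shares are counts on transcripts of that type over all counts of the gene. Ratios between libraries used genes with at least 10 counts in both. Counts were rounded for edgeR 4.0.16 (TMM) and DESeq2 1.42.0 size factors in R 4.3.3, used for scaling only. Tables were handled in Python 3.11 with pandas 2.3.3. A median-centred ratio of library-scaled counts, without a pseudocount, was tested on simulated counts. The ratios of TPM with the pseudocount were not tested in this way. Alternatives were other pseudocounts, minimums, scalings and tables, and each library alone. A wider list is not reported here by its genes.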

Additional observations from a re-analysis of the deposited data

How the results depend on the processing

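Both libraries form 1 group, so the limits below concern levels only, and with n = 2 no setting carries a test. The alternative with all counts on one transcript, CPM ratios and the list without Vim were chosen after seeing the data. The median log2 level of the 37 genes was 5.87 and became 6.39 with TPM rescaled without mitochondrial and short genes, 4.55 in the alignment-free table and 6.80 in log2 CPM, and ran from 5.69 to 6.05 with either library left out. Its distance from all protein-coding genes was 5.20 and became 2.47 against detected genes, 6.40 with a pseudocount of 0.1, 3.77 in the alignment-free table and 5.48 with rescaled TPM, and ran from 5.17 to 5.22. The share of counts, 0.803%, became 1.07% over protein-coding genes and 0.697% in the alignment-free table, and ran from 0.785% to 0.822%. The retained-intron share, 13.0%, became 10.4% without Vim and ran from 11.8% to 14.2%. The median ratio between libraries was 0.023 and became -0.47 in the alignment-free table, centred on that table's own countable genes. The cause of these shifts was not tested. No paralog ratio changed the sign of its mean in these settings. In contrast, 34 of 37 gene levels in the alignment-free table and 16 of 37 with all counts on one transcript moved by more than the SD of the libraries. The alignment-free levels were not rescaled, so the 34 carry the difference in scale between the tables. That count cannot separate scale from changes of single genes. Of 22 paralog ratios, 16 moved in the alignment-free table and 10 with a pseudocount of 0.1. Members over 1.5-fold higher in replicate 2 numbered 1 by TPM, 2 with a pseudocount of 0.1 or a minimum of 100 counts, and 5 by TMM, DESeq2 size factors or CPM. No paired analysis was possible because both libraries belong to the same group. Depth limited Ezr most, with 118 and 205 counts.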
